A study of Rattus norvegicus with 294 samples.

Results

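A set of 35 genes of ribosome biogenesis and of the growth program that the transcription factor Myc drives were followed across the bone cells of rats given an antibody to sclerostin. The genes were listed by name, with earlier results of these data known, so counts of called genes among them are descriptions and not independent tests. A gene was measured here where the array carried a probe set annotated to it and to no other gene, and where a gene had several such probe sets the one with the highest mean log2 intensity was used. Of the 35 genes, 34 were measured, among 14217 genes with a probe set of their own. The exception was Npm1, which encodes the nucleolar chaperone nucleophosmin and whose 3 probe sets were all shared with a pseudogene.

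The rats were female Sprague Dawley animals ovariectomized at 6 months of age and left untreated for 8 weeks, so every group, the controls included, lacked ovaries. Each rat then received vehicle, 3 mg/kg or 50 mg/kg of a sclerostin antibody (Scl-Ab) by weekly injection under the skin. Rats were killed on days 8, 29, 85 and 183 of dosing. After dosing ended, vehicle and 3 mg/kg rats were killed on days 197 and 267, and vehicle and 50 mg/kg rats on days 237 and 309. Osteoblasts (bone-forming surface cells), lining cells (flat cells on quiet bone surface) and osteocytes (cells embedded in bone) were captured by laser from frozen sections of a lumbar vertebra. Calcein, a dye laid down in new mineral and injected 13 and 3 days before death, marked the forming surfaces. The captures are enriched and not pure, and the amplified RNA was hybridized to Affymetrix arrays.

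The 294 arrays comprised 97 of osteoblasts, 100 of lining cells and 97 of osteocytes, of which 120 came from vehicle rats, 88 from rats given 3 mg/kg and 86 from rats given 50 mg/kg. They formed 60 groups of 5 arrays, except 4 groups of 4 and 1 of 3. The design describes capture from 5 rats per group and day, so the 3 cell types of a group came from the same rats, but the labels tie no array to a rat. The p-values therefore measure the spread between these arrays. Intensities are given on the log2 scale, on which a difference of 1 is a factor of 2. The signal range of an array, defined as the 90th minus the 50th percentile of its log2 intensities over all probe sets, ran from 2.43 to 3.69 and moved with the level of the listed genes, so it is given beside the results it touches. In vehicle rats the mean log2 intensity of osteocyte marker genes was 4.26 in osteoblast, 3.79 in lining cell and 5.63 in osteocyte captures. Osteoblast marker genes averaged 9.21, 7.74 and 9.83 in the same order, so they did not set osteoblast captures above osteocyte captures. Erythroid genes, which belong to marrow, averaged 9.23, 8.78 and 7.92.

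Ribosomes are built in the nucleolus, where RNA polymerase I transcribes the ribosomal RNA precursor, small nucleolar ribonucleoproteins of the box C/D and box H/ACA classes modify it, and assembly factors fold and cut it into the large and small subunits. Myc raises the transcription of many genes of this pathway, together with enzymes of polyamine and nucleotide synthesis, translation factors and mitochondrial chaperones, largely by binding E-box motifs near gene starts. Sclerostin, made mainly by osteocytes, blocks Wnt signalling on osteoblast-lineage cells, and Myc is a known Wnt target in several tissues. Osteoblasts that lay down matrix make large amounts of secreted protein, which needs ribosomes.

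The letters of the canonical Myc E-box are in 8 of the 33 listed genes that had a promoter entry in the RefSeq table (24.2%). The motif searched was CACGTG, which reads the same on both strands, in the 250 bases before the annotated gene start on build GRCr8. The same letters were in 1872 of all 33469 promoters of that length (5.59%), and in 839 of 10658 promoters of genes tested in osteoblasts (7.87%). The 8 were Srm, Eif5a, Eif4e, Gnl3, Mybbp1a, Pes1, Dkc1 and C1qbp, with Eif4e holding the motif at 2 places. Median GC content was 60.8% for the listed genes, 59.6% for the genes tested in osteoblasts and 51.2% for all promoters. Of the 10 listed genes that rose in osteoblasts on day 8, described next, 4 held the motif, and of the other 23 with an entry 4 did. A match is a description of the letters and not evidence of a bound site. In all, 6 promoters are shown, each from 250 bases before to the last base before the gene start, with the motif in capitals: 3 of these are genes that rose most on day 8 (Srm, Fbl and Eif5a), Ncl and Eif4e rose with them, and Polr1b fell on day 29. They lie at chr5:164308752-164309001 (Srm, plus strand), chr1:92597157-92597406 (Fbl, plus strand), chr10:55143222-55143471 (Eif5a, minus strand), chr9:94456084-94456333 (Ncl, minus strand), chr2:229740503-229740752 (Eif4e, plus strand) and chr3:136786880-136787129 (Polr1b, plus strand).
Srm: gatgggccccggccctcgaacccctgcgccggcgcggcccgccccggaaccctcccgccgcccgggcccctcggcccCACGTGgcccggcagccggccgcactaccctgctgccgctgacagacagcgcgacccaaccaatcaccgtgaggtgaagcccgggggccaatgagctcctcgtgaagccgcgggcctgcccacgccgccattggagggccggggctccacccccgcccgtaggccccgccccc
Fbl: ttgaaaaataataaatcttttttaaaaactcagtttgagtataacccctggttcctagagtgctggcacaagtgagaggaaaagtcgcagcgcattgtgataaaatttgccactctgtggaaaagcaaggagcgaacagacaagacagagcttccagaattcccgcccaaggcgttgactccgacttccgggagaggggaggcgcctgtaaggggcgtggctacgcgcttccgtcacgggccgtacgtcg
Eif5a: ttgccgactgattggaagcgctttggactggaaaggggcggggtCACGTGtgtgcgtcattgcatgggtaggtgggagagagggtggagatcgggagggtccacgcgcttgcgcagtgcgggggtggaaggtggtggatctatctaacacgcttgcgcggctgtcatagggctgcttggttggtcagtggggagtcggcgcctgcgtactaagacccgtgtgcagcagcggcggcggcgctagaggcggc
Ncl: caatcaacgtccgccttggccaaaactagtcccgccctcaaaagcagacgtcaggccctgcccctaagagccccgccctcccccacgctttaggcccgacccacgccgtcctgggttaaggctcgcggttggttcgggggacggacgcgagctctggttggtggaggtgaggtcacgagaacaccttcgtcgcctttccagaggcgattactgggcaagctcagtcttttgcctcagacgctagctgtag
Eif4e: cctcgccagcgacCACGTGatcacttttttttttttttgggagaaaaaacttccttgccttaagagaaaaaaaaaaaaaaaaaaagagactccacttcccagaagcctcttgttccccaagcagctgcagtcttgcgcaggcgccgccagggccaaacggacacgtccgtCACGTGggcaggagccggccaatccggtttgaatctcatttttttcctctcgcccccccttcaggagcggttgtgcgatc
Polr1b: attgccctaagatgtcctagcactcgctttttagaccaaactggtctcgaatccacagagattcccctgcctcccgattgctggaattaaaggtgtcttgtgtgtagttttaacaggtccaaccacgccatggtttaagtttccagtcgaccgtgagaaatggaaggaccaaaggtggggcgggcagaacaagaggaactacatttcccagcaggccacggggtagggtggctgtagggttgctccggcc
Srm, Eif5a and Eif4e hold the motif and Fbl, Ncl and Polr1b do not, so genes with and without these letters are found among those that rose.

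Growth genes were higher in osteoblasts of antibody-treated rats on day 8. Of the 34 listed genes, 10 rose and none fell when the mean of both dose groups was set against vehicle (limma, Benjamini-Hochberg adjusted p under 0.05 over all genes tested), against 2.52% of all 11412 genes tested that rose. Of the 34 differences 32 were above 0, as were 55% of those of all genes tested. Without adjustment, 15 were higher at p under 0.05. Unadjusted counts, here and below, are descriptions, since their share over all genes was not computed. The median difference was 0.19 over the listed genes and 0.02 over all genes tested. In RNA from captured tissue, fewer cells of a type and less RNA per cell cannot be told apart.

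Srm, which encodes spermidine synthase of the polyamine pathway, differed most. Its log2 intensity in the 5 vehicle arrays was 6.09, 6.46, 5.69, 7.52 and 6.00. In the 4 arrays at 3 mg/kg it was 7.13, 6.93, 6.90 and 7.52, and in the 5 arrays at 50 mg/kg 7.54, 8.26, 8.06, 7.01 and 7.76. All 9 antibody arrays lay above the vehicle mean, and 1 vehicle array, at 7.52, lay among them. The difference was 1.07 (SE 0.24, adjusted p = 0.00458).

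Fbl encodes fibrillarin, the methyltransferase of box C/D ribonucleoproteins. Vehicle arrays read 6.17, 5.81, 6.31, 6.85 and 6.24, arrays at 3 mg/kg read 6.37, 7.25, 6.52 and 7.14, and arrays at 50 mg/kg read 7.12, 7.71, 7.25, 7.26 and 7.47. Every 50 mg/kg array was above every vehicle array, and the 3 mg/kg arrays overlapped vehicle. The difference was 0.82 (SE 0.19, adjusted p = 0.00651), with 9 of 9 antibody arrays above the vehicle mean.

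Eif5a encodes a translation factor that carries hypusine, an amino acid made from spermidine, the product of the Srm enzyme. Its vehicle arrays read 8.32, 8.87, 8.86, 9.36 and 8.72, those at 3 mg/kg 9.19, 9.40, 9.05 and 9.76, and those at 50 mg/kg 9.79, 10.47, 9.89, 9.68 and 9.39. The 50 mg/kg arrays all lay above the highest vehicle array, by a narrow margin for the lowest of them. The difference was 0.77 (SE 0.16, adjusted p = 0.00260). Ncl encodes nucleolin, a major nucleolar protein that binds the ribosomal RNA precursor; vehicle arrays read 6.32, 5.82, 6.23, 6.56 and 5.66, 3 mg/kg arrays 6.15, 7.05, 6.35 and 7.00, and 50 mg/kg arrays 6.39, 7.20, 7.10, 6.94 and 6.64. Its groups overlapped at both doses, and the difference was 0.63 (SE 0.18, adjusted p = 0.0375).

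By role, the day 8 rise took in both translation factors, 2 of 4 box H/ACA proteins, and 2 of 4 enzymes of polyamine and nucleotide synthesis. Eif4e, which encodes the cap-binding protein of translation initiation, rose by 0.49 beside Eif5a. Nhp2 and Nop10, core proteins of the box H/ACA particle that guides pseudouridylation, rose by 0.58 and 0.49. Gar1 and Dkc1 of the same particle had differences of 0.04 and 0.11 and did not pass. Nme1, a nucleoside diphosphate kinase, rose by 0.57, while Odc1, the ornithine decarboxylase that feeds Srm, had a difference of 0.45 and did not pass. Among proteins of mitochondria, C1qbp rose by 0.51 and the chaperonin partner Hspe1 by 0.47, while Hspd1, its partner, had a difference of 0.31 that did not pass. None of the 6 large subunit assembly factors, the 2 small subunit factors or the 4 subunits of RNA polymerase I passed. The differences of the polymerase subunits ran from 0.05 for Polr1c to 0.15 for Polr1b. In the box C/D group only Fbl passed, and Nop56 and Nop58, its scaffold partners, had differences of 0.13 and 0.06.

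The size of the day 8 count depended on single arrays and on the fit. It ranged from 2 to 11 when arrays were left out in turn, and was 4 and 2 without vehicle replicate 2 or 3, 3 without 3 mg/kg replicate 2 or 4, and 5 without 50 mg/kg replicate 2. With the day 8 osteoblast arrays fitted alone, 1 gene (Fbl) passed. Fbl passed with any of the 14 arrays left out, Srm passed except without vehicle replicate 3, and Ncl lost its call with any of 7 arrays left out.

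At 50 mg/kg alone, 12 of the 34 genes rose on day 8 and none fell, against 5.21% of all genes tested that rose. Srm rose by 1.37 (SE 0.27, adjusted p = 0.000536), Fbl by 1.09 (SE 0.22, adjusted p = 0.000592), Eif5a by 1.02 (SE 0.18, adjusted p = 0.000166) and Nhp2 by 0.81 (SE 0.18, adjusted p = 0.00250). The other 8 were Ncl, Nme1, C1qbp, Nop10, Ebna1bp2, Eif4e, Hspe1 and Mybbp1a, with differences from 0.74 to 0.47. Ebna1bp2 is a large subunit assembly factor and Mybbp1a a nucleolar protein that binds Myb. In 8 of the 12 genes every 50 mg/kg array was above every vehicle array. The 12 were already picked by their calls, and the same share over all called genes was not computed, so this count is description alone. The count was 8 to 12 with arrays left out in turn and 9 to 13 under the other settings tried. At 3 mg/kg alone, 0 of 34 passed, as did 0% of all genes tested. Srm differed from vehicle by 0.77 (SE 0.29, adjusted p = 0.553) and Eif5a by 0.52. That only the higher dose gave calls does not show that the doses differ, and the direct comparison of doses is given further on.

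**Figure D1:**
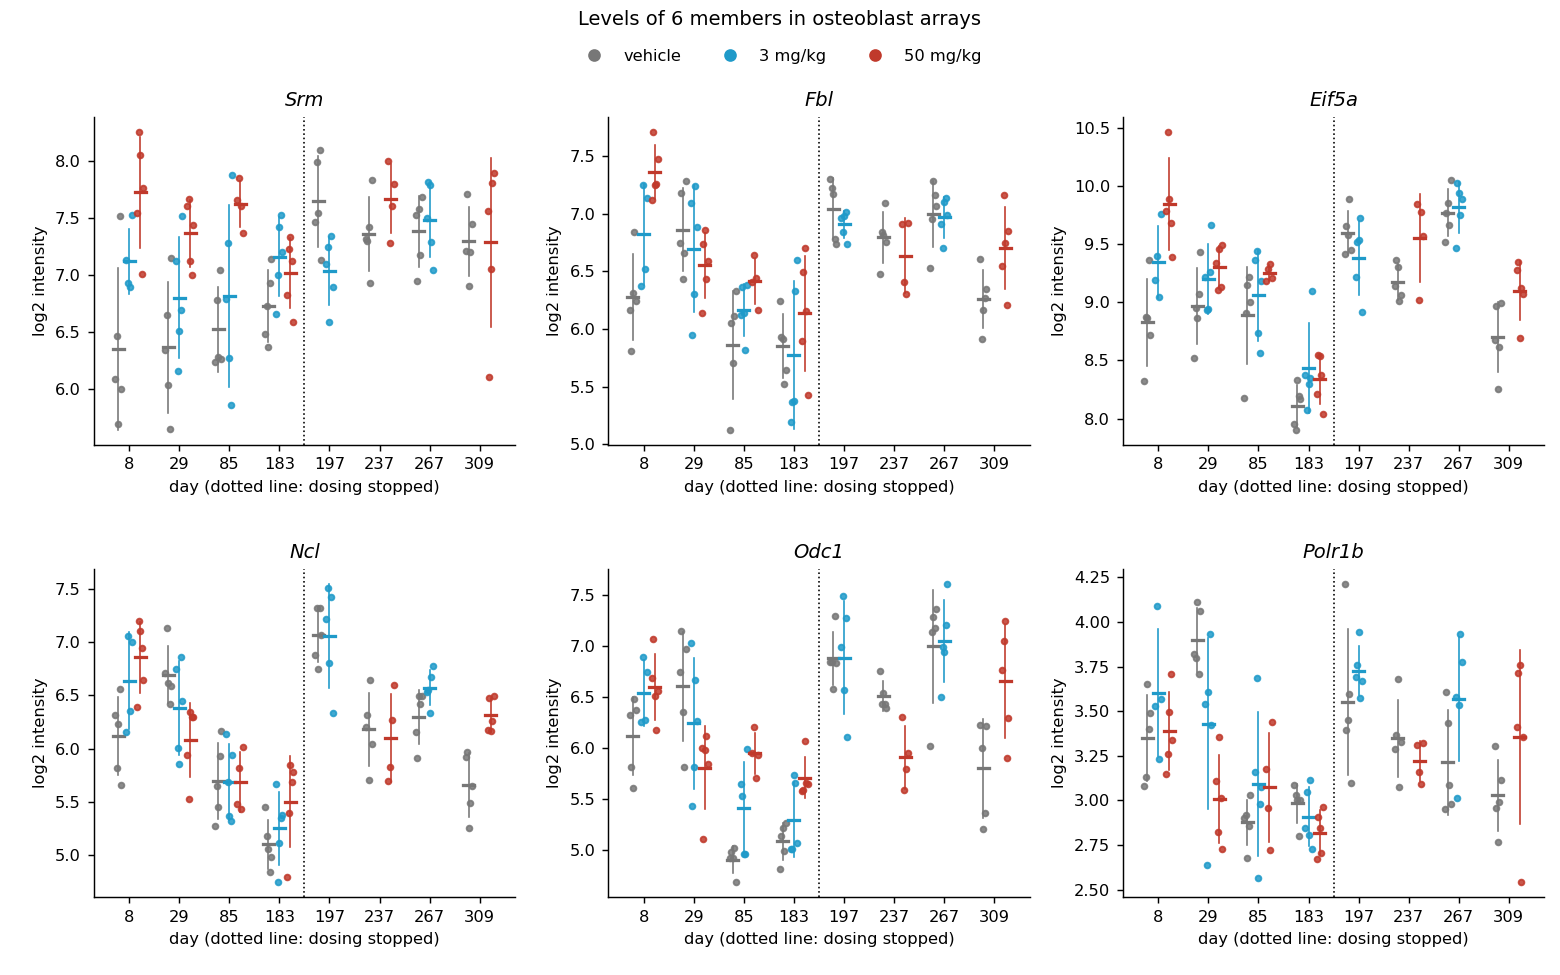
Log2 intensity of 6 listed genes in each osteoblast array (points) by day, for vehicle (grey), 3 mg/kg (blue) and 50 mg/kg (red), with group means (bars) and SD (thin lines); the dotted line marks the end of dosing. On day 8 the 50 mg/kg arrays of Fbl (7.12 to 7.71) and Eif5a (9.39 to 10.47) lay above all vehicle arrays, and on day 29 those of Polr1b (2.72 to 3.35) lay below them.

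Genes of the same pathways outside the list showed a mixed picture on day 8. With both doses pooled, 3 of 30 other translation initiation genes rose (Eif3i by 0.60, Eif3f by 0.53 and Eif3b by 0.53, all subunits of initiation factor eIF3) and none fell. Of 10 other polyamine genes, Oaz1, the antizyme that restrains ornithine decarboxylase, rose by 0.72 and Dhps, the enzyme that begins hypusine synthesis on Eif5a, by 0.40. None of 84 other pre-ribosome assembly factors, 11 other RNA polymerase I genes, 16 other nucleotide synthesis genes or 12 other mitochondrial chaperone and protease genes passed, nor did any of 13 genes of the Myc network. Myc itself had a difference of -0.08 (SE 0.15, adjusted p = 0.863). At 50 mg/kg alone, 8 of the 30 translation initiation genes and 4 of the 84 assembly factors rose (the largest changes were Brix1 by 0.71, Bysl by 0.64 and Ddx18 by 0.58). Myc had a difference of 0.00 (SE 0.17, adjusted p = 0.999) at that dose.

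Erythroid and proliferation genes moved with the listed genes on day 8. Of 9 erythroid genes tested, 4 rose with both doses together, Car1 by 1.42 and Klf1 by 0.80 among them, and 7 rose at 50 mg/kg. Their mean level ran from 8.13 to 8.67 in vehicle arrays, from 8.42 to 9.32 at 3 mg/kg and from 8.54 to 9.78 at 50 mg/kg. Of 16 proliferation genes, 3 rose (Ccnb1 by 0.84, Cdk1 by 0.72 and Pcna by 0.60), with a mean level of 7.09 in vehicle, 7.37 with 3 mg/kg and 7.52 with 50 mg/kg. Other marrow lists did not move this way: with both doses together none of 6 granulocyte, 8 macrophage, 5 B-lineage or 6 megakaryocyte genes passed. Osteoblast markers had a median difference of 0.51, and none of the 6 passed. The part of these cells in the rise of the listed genes was not tested. The signal range averaged 3.48, 3.54 and 3.52 in the 3 groups, and with it as a covariate the count of listed genes was again 10.

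On day 29 more of the listed genes were lower than higher in osteoblasts of antibody-treated rats. With both doses together, 1 of 34 rose and 5 fell, against 2.65% of all genes tested that rose and 12.4% that fell. These calls were in shares near those of all genes tested, so the genes named below are descriptions. Of the 34 differences 27 were below 0 and 7 above, where 43.6% of all genes tested were above 0. The median was -0.18 over the listed genes and -0.05 over all genes. Srm was the gene that stayed higher, by 0.72 (SE 0.24, adjusted p = 0.0289). Vehicle arrays of Srm read 6.34, 6.65, 6.04, 5.65 and 7.15, 3 mg/kg arrays 7.12, 6.16, 6.51, 6.69 and 7.52, and 50 mg/kg arrays 7.61, 7.67, 7.12, 7.00 and 7.44. The highest vehicle array lay above 2 of the 50 mg/kg arrays.

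Polr1b, which encodes the second largest subunit of RNA polymerase I, fell most on day 29. Its level was low throughout: 3.82, 3.80, 4.11, 3.71 and 4.06 in vehicle, 3.54, 2.64, 3.60, 3.93 and 3.42 with 3 mg/kg, and 3.11, 2.82, 3.35, 3.01 and 2.72 with 50 mg/kg. All 50 mg/kg arrays lay below all vehicle arrays, and the 3 mg/kg arrays overlapped them. The difference was -0.68 (SE 0.16, adjusted p = 0.00217). Nop58, a scaffold of the box C/D particle, read 9.60, 9.53, 9.18, 8.75 and 9.03 in vehicle, 9.20, 8.55, 8.82, 9.31 and 9.07 with 3 mg/kg, and 8.47, 8.11, 8.82, 8.48 and 8.31 with 50 mg/kg. Its lowest vehicle array lay below the highest 50 mg/kg array, and the difference was -0.50 (SE 0.12, adjusted p = 0.00370). Rrs1, a large subunit assembly factor, fell by 0.45 (SE 0.14, adjusted p = 0.0176) with 10 of 10 antibody arrays below the vehicle mean. Hspd1, the mitochondrial chaperonin, fell by 0.45 (SE 0.14, adjusted p = 0.0200), and Gnl3, nucleostemin, by 0.42.

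At 50 mg/kg alone on day 29, 10 of the 34 genes fell and Srm rose by 1.0 (SE 0.27, adjusted p = 0.00387), against 20.6% of all genes tested that fell and 7.76% that rose. The largest falls were in Polr1b (-0.89), Odc1 (-0.80), Nop58 (-0.78) and Hspd1 (-0.66). Ncl and Eif4e, which had risen on day 8, fell by 0.61 and 0.53. Around the list, 13 of 84 other assembly factors fell with both doses together and none rose, with Nip7 (-0.79), Imp3 (-0.57) and Dcaf13 (-0.57) changed most, and 6 of 30 translation initiation genes fell. Myc had a difference of -0.27 (SE 0.15, adjusted p = 0.216).

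The day 29 falls moved with other features of the arrays. Of 16 proliferation genes, 8 fell, with a mean level of 7.52 in vehicle, 7.24 with 3 mg/kg and 6.90 with 50 mg/kg. Osteoblast markers went the other way, with 3 of 6 higher. The signal range averaged 3.53 in vehicle, 3.41 with 3 mg/kg and 3.16 with 50 mg/kg. After quantile normalization 2 listed genes rose and 2 fell with both doses together, with a median of -0.03, and with the signal range as a covariate 1 rose and none fell. For 50 mg/kg alone the counts were 2 higher and 3 lower after quantile normalization, and 2 higher and 2 lower with the covariate. Over all genes tested, quantile normalization gave 444 higher and 690 lower for both doses, where the deposited values gave 302 and 1411. At 50 mg/kg alone it gave 1112 and 1361, where the deposited values gave 886 and 2355. The count of 6 for both doses became 2 without vehicle replicate 1, 3 without vehicle replicate 2, and 10 without vehicle replicate 4 or 3 mg/kg replicate 4; with the compared arrays fitted alone it was 1.

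The change in response between day 8 and day 29 was tested directly as a difference of differences. In 14 of the 34 genes the antibody response was lower on day 29 than on day 8 and in none was it higher, against 7.25% of all genes tested that were lower. Ncl had the largest such difference, -1.09 (SE 0.26, adjusted p = 0.00533), followed by Fbl at -1.05 (SE 0.27, adjusted p = 0.00923), Odc1 at -1.03 (SE 0.30, adjusted p = 0.0221) and Polr1b at -0.83 (SE 0.22, adjusted p = 0.0128). The other 10 were Eif4e, Nhp2, Hspd1, Ebna1bp2, C1qbp, Nme1, Rrs1, Hspe1, Nop10 and Nop58, from -0.79 to -0.57. The median was -0.40 over the listed genes and -0.07 over all genes. Of the genes that led the rise on day 8, Fbl was among the 14, while Srm and Eif5a were not. That Srm and Eif5a did not pass does not show that their response was kept. With quantile normalization 5 passed and with the signal range as a covariate 0. Of all 11412 genes tested, 163 were higher and 358 lower after quantile normalization, where the deposited values gave 103 and 827. The number over all genes with the covariate is not given here. Leaving arrays out gave 4 to 14, with 6 and 9 without day 8 vehicle replicate 2 or 3, 8 without day 8 3 mg/kg replicate 2, and 4, 6 and 7 without day 29 vehicle replicate 1, 2 or 5.

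With both doses together, 1 of 34 listed genes passed in osteoblasts on day 85 and was higher, against 1.26% of all genes tested. This was Odc1, whose log2 intensity was 4.92, 4.98, 4.92, 5.01 and 4.68 in vehicle, 5.64, 5.52, 4.96, 4.96 and 5.99 with 3 mg/kg, and 5.95, 6.20, 5.70 and 5.92 with 50 mg/kg. All 50 mg/kg arrays stood above vehicle, and 2 of the 3 mg/kg arrays lay within it. The difference was 0.78 (SE 0.22, adjusted p = 0.0389), and the call was lost with any of 10 of the 14 arrays left out (all but vehicle replicate 2, 3 mg/kg replicates 3 and 4 and 50 mg/kg replicate 3), and with the signal range as a covariate. At 50 mg/kg alone, Odc1 was higher by 1.04 (SE 0.26, adjusted p = 0.00865) and Srm by 1.10 (SE 0.29, adjusted p = 0.0135), 2 of 34 genes against 3.38% of all genes tested. Srm read 6.24, 6.78, 6.28, 7.05 and 6.26 in vehicle, 6.79, 7.28, 6.27, 5.86 and 7.88 with 3 mg/kg, and 7.66, 7.85, 7.61 and 7.37 with 50 mg/kg. Its 50 mg/kg arrays all lay above vehicle, while those at 3 mg/kg spread beyond the vehicle range on both sides, and the 50 mg/kg call was lost without 50 mg/kg replicate 2 (adjusted p = 0.0527). At 3 mg/kg alone, 0 of 34 passed, against 0.0876% of all genes tested. Of 10 other polyamine genes, none passed at 50 mg/kg or with both doses together. Cell type markers moved in the same 50 mg/kg arrays: 5 of 6 megakaryocyte genes were higher, with a mean level from 8.42 to 8.69 against 7.27 to 7.98 in vehicle, as were 5 of 6 osteoblast markers (Col1a1 by 2.41) and 2 of 7 endothelial genes. The osteoclast genes Ctsk and Acp5, 2 of 3 tested, were lower by 1.58 and 0.94, as was 1 of 5 B-lineage genes. The part of these cells in the values of Odc1 and Srm was not tested.

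On day 183, the last day of dosing, 2 of 34 genes were higher in osteoblasts with both doses together, against 2.27% of all genes tested. Pes1, a large subunit assembly factor that works with Bop1 and Wdr12, read 3.81, 3.54, 3.53, 3.75 and 3.84 in vehicle, 4.24, 3.71, 4.29, 4.61 and 4.39 with 3 mg/kg, and 3.64, 4.53, 4.61, 4.44 and 4.38 with 50 mg/kg. A single array of each antibody group fell within the vehicle range, and the difference was 0.59 (SE 0.16, adjusted p = 0.0230). Gar1, a box H/ACA protein, was higher by 0.48 (SE 0.14, adjusted p = 0.0325), with 10 of 10 antibody arrays above the vehicle mean and 1 vehicle array, at 8.43, among them. At 50 mg/kg alone Pes1 was higher by 0.63 and was the only gene of 34 to pass, against 3.28% of all genes. The day 183 count was 0 without vehicle replicate 2 or 3, 4 without 3 mg/kg replicate 2 or 50 mg/kg replicate 1, 1 without vehicle replicate 4, 3 mg/kg replicate 4, or 50 mg/kg replicate 3 or 4, 0 with the signal range as a covariate and 6 with array weights. Of 16 proliferation genes 6 were higher in the same comparison (Mcm6 by 0.79, Ccna2 by 0.71 and Mki67 by 0.63), with a mean level of 6.43 in vehicle, 6.76 in 3 mg/kg rats and 6.93 in 50 mg/kg rats, and 3 of 6 granulocyte, 1 of 6 megakaryocyte and 1 of 3 osteoclast genes were higher. Their part was not tested. The signal range averaged 2.68 in vehicle, 2.83 with 3 mg/kg and 2.88 with 50 mg/kg. The response on day 183 differed from that on day 8 in 0 of 34 genes (limma), against 0.561% of all genes tested, with 2 higher and 7 lower at an unadjusted p under 0.05. The smallest p-values belonged to Rrp9, a box C/D protein (-0.78, adjusted p = 0.106), and Fbl (-0.71, adjusted p = 0.198).

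**Figure D2:**
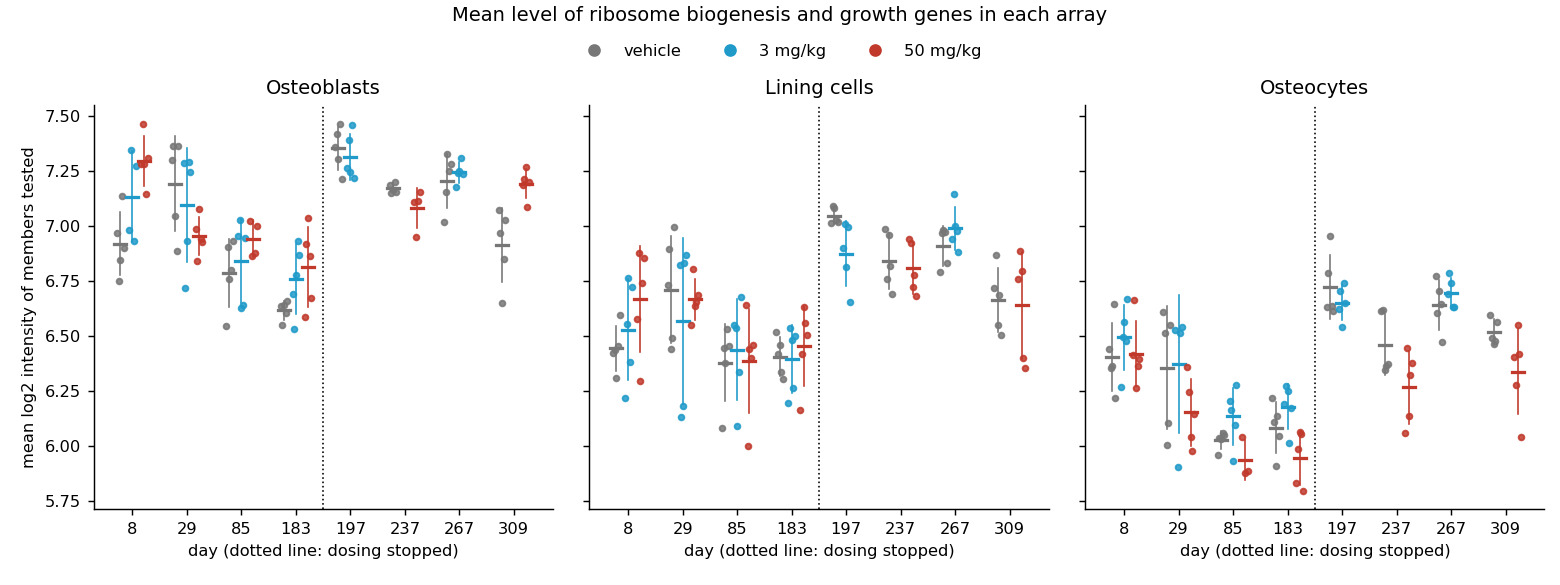
Mean log2 intensity of the listed genes tested in each cell type (34 in osteoblasts, 33 in lining cells and osteocytes), 1 point per array, with the group mean (bar) and SD (thin line), by day; grey is vehicle, blue 3 mg/kg and red 50 mg/kg. In osteoblasts the order of the group means was vehicle 6.92, 3 mg/kg 7.13 and 50 mg/kg 7.30 on day 8, and vehicle 7.19, 3 mg/kg 7.10 and 50 mg/kg 6.96 on day 29.

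After dosing stopped, osteoblasts of 3 mg/kg rats gave no call among the listed genes. On day 197, 0 of 34 passed (limma; 2 lower at an unadjusted p under 0.05), against 0.0789% of all genes tested, and the smallest p-values were those of Srm (-0.61, SE 0.27) and Gar1 (-0.33). In the same day 197 arrays 4 of 6 osteoblast markers were lower: Col1a1 (-2.90), Bglap (-2.51), Col1a2 (-2.48) and Sparc (-1.89). Their part was not tested. On day 267, 0 passed (1 higher unadjusted), against 0% of all genes tested, with Nop14 at 0.31 and Polr1b at 0.36.

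In osteoblasts of 50 mg/kg rats after dosing, few listed genes passed. On day 237, 2 of 34 genes were lower and none higher, against 7.7% of all genes tested that were lower. Hspd1 read 10.66, 10.52, 10.47, 10.53 and 10.17 in vehicle and 9.89, 9.69, 9.96 and 10.12 in antibody rats. The groups did not overlap, and the difference was -0.56 (SE 0.17, adjusted p = 0.0235). Gar1 was lower by 0.50 (SE 0.17, adjusted p = 0.0438). Neither call was present after quantile normalization or with the signal range, 3.44 in vehicle and 3.22 in antibody rats, as a covariate. The count was 0 without vehicle replicate 1 or 4 or 50 mg/kg replicate 1, and 1 without vehicle replicate 2 or 5 or 50 mg/kg replicate 2 or 4. In the same arrays 5 of 16 proliferation genes (Ccna2 by 1.16 and Bub1 by 0.95) and 2 of 5 B-lineage genes (Blnk and Ms4a1) were lower. So were 2 of 8 macrophage genes and 1 of 7 endothelial genes, while 1 of 6 granulocyte and 1 of 6 megakaryocyte genes were higher. The osteoblast markers called went both ways, with differences of -1.45 for Bglap and 0.70 for Alpl. The part of these cells was not tested. Set against the day 183 response of the same dose, 5 of 34 genes had a lower response on day 237, against 9.1% of all genes tested: Odc1 by 1.23, Hspd1 by 0.97, Gar1 by 0.91, Hspe1 by 0.71 and Gnl3 by 0.68. This count was 3 after quantile normalization, with 1 higher and 2 lower, and 0 with the covariate. It was 3 without day 183 vehicle replicate 2, day 183 50 mg/kg replicate 3 or 4, day 237 vehicle replicate 1, 2 or 4, or day 237 50 mg/kg replicate 1 or 2.

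On day 309, 5 of 34 genes were higher in osteoblasts of 50 mg/kg rats and none lower, against 8.63% of all genes tested that were higher. Odc1 read 6.22, 5.99, 5.20, 5.36 and 6.22 in vehicle and 6.76, 7.05, 7.25, 5.90 and 6.29 in antibody rats; the groups overlapped, and the difference was 0.85 (SE 0.25, adjusted p = 0.0175). Hspd1 read 9.71, 9.65, 9.36, 9.79 and 9.68 in vehicle and 10.46, 10.53, 10.59, 9.83 and 10.07 in antibody rats. All its antibody arrays lay above vehicle, with a difference of 0.66 (SE 0.16, adjusted p = 0.00528). Ncl read 5.93, 5.97, 5.26, 5.50 and 5.65 against 6.17, 6.48, 6.17, 6.26 and 6.49. It too did not overlap, with a difference of 0.65 (SE 0.21, adjusted p = 0.0313). Nop16, a nucleolar factor of large subunit assembly, was higher by 0.53 (SE 0.18, adjusted p = 0.0414) and Eif4e by 0.50. Beside them, 8 of 84 other assembly factors and 6 of 16 proliferation genes were higher. So were the osteoclast genes Acp5 (by 1.23) and Ctsk (by 1.03), 2 of 3 tested, and 1 of 8 macrophage and 1 of 7 endothelial genes. Among the osteoblast markers Ibsp was higher, by 0.94. The signal range averaged 3.08 in vehicle and 3.41 in antibody rats, and the part of other cell types was not tested. After quantile normalization, with the covariate, or with these arrays fitted alone, 0 passed. The count was 0 without vehicle replicate 3, 1 without vehicle replicate 4, 3 without 50 mg/kg replicate 1, and 1 without 50 mg/kg replicate 2 or 3.

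In lining cells none of the 33 listed genes tested passed in any comparison with vehicle; Dkc1 was too dim for the filter there and in osteocytes. On day 8, 0 passed (limma; 7 higher and none lower at an unadjusted p under 0.05), against 0.31% of all 11600 genes tested, with a median of 0.15 for the listed genes and 0.00 for all genes. Nme1 had the smallest p. It read 7.21, 7.42, 6.99, 7.02 and 7.67 in vehicle, 7.13, 7.67, 7.79, 7.30 and 7.88 with 3 mg/kg, and 7.76, 8.16, 7.63, 7.71 and 8.15 with 50 mg/kg. The highest vehicle array overlapped both doses, and the difference was 0.46 (SE 0.17, adjusted p = 0.304). Eif5a followed at 0.51 (SE 0.20, adjusted p = 0.352). With array weights 3 listed genes passed, and the share of all genes in that fit is not given here.

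No listed gene passed on the other days in lining cells either. On day 29 the 2 smallest p-values were those of Eif4e (-0.37) and Nop14 (-0.26), with 2 genes lower unadjusted and 0.0431% of all genes called. Ncl (0.47, adjusted p = 0.462) and Wdr12 (-0.29) led on day 85, with 1 higher unadjusted and 0.0776% of all genes called. On day 183 they were Ebna1bp2 (0.35) and Nop56 (0.16), with 1 higher unadjusted and 0.0517% called. After dosing, 3 mg/kg rats gave Pes1 at -0.62 and Cad at -0.32 on day 197 (1 lower unadjusted; 0.0603% of all genes called). Odc1, at 0.77 (SE 0.28, adjusted p = 0.194), and Srm, at -0.57, led on day 267 (1 higher unadjusted; 1.08% called). The 50 mg/kg rats gave Hspd1 at -0.39 and Mybbp1a at 0.40 on day 237 (1 higher and 1 lower unadjusted; 1.45% called), and Ncl at -0.64 and Mybbp1a at 0.41 on day 309 (2 higher and 2 lower unadjusted; 0.405% called). The self-test on simulated lining cell data with 5 arrays a group recovered 93 of 100 genes changed by 1 on the log2 scale on day 8. It recovered 47 of 100 changed by 0.5, so changes of the smaller size could be missed. Its noise was independent between genes, unlike that of the arrays, so real recovery may be lower. The simulation also held 100 changed genes of each size, while the real day 8 comparison called 7 genes higher and 29 lower. More true changes loosen the Benjamini-Hochberg threshold, so these recoveries may be too high for the real data.

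In osteocytes none of 33 genes passed on any dosing day with both doses together. On day 8, 0 passed (limma; 1 higher unadjusted), against 0.287% of all 11859 genes tested, and Nme1 was nearest at 0.50 (SE 0.14, adjusted p = 0.107), with 10 of 10 antibody arrays above the vehicle mean. It passed after quantile normalization. Rrs1 followed at 0.28. C1qbp (-0.44) and Gar1 (-0.54) had the smallest p-values on day 29 (1 higher and 4 lower unadjusted; 0.211% of all genes called), Bop1 (0.33) and Tsr1 (-0.30) on day 85 (1 higher and 1 lower; 6.3% called), and Polr1d (0.29) and Polr1a (0.42) on day 183 (2 higher; 2.06% called). At 50 mg/kg alone on day 85, with 3 antibody arrays, Tsr1, a small subunit factor, was lower by 0.59 (SE 0.19, adjusted p = 0.0287), 1 of 33 genes against 3.5% of all genes that were lower. That call was lost without vehicle replicate 2 or 5 or 50 mg/kg replicate 3, with array weights, and with the compared arrays fitted alone.

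The doses differed in osteocytes. Over days 8, 29, 85 and 183 together, 9 of 33 listed genes were lower at 50 mg/kg than at 3 mg/kg and none higher. Of all genes tested, 8.12% were lower. The difference was below 0 in 31 of the 33 listed genes, where 46.2% of all genes tested were above 0. The median was -0.16 over the listed genes and -0.01 over all genes. Fbl differed most, by -0.56 (SE 0.14, adjusted p = 0.00151). On day 8 its level was 5.29, 5.74, 5.86, 5.68 and 6.12 at 3 mg/kg and 5.54, 5.88, 5.28, 5.27 and 5.47 at 50 mg/kg. On day 29 it was 5.53, 4.11, 5.24 and 5.88 against 5.16, 5.25, 4.41, 3.08 and 4.97. These days overlapped, with a wide spread on day 29. On day 85 it was 4.81, 5.06, 5.06, 4.98 and 4.95 against 4.39, 4.00 and 3.80, and on day 183 it was 5.00, 5.27, 4.88, 4.63 and 5.16 against 4.04, 4.40, 4.98, 4.76 and 4.37. Day 85 was the day on which the doses did not overlap.

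Gar1 was lower by 0.36 (SE 0.13, adjusted p = 0.0480), and its call was lost with any of 23 of the 37 arrays left out. Eif5a was lower by 0.35 (SE 0.12, adjusted p = 0.0270), lost with any of 4: 3 mg/kg day 8 replicate 5, day 29 replicate 4 or day 183 replicate 3, and 50 mg/kg day 85 replicate 2. Bop1, which works with Pes1 in large subunit assembly, was lower by 0.34 (SE 0.09, adjusted p = 0.00320) and passed with any array left out. The other 5 were Tsr1, Hspe1, Hspd1, Polr1d and Polr1b, from -0.30 to -0.21. Ebna1bp2 (0.03) and Nop16 (0.08) were the 2 differences above 0. The count was 10 after quantile normalization, 7 with the signal range as a covariate and 11 with array weights; it was 5 without 3 mg/kg day 8 replicate 5, day 29 replicate 4 or day 183 replicate 3. Of 85 other assembly factors, 13 were lower, with Bysl (-0.54), Sdad1 (-0.45) and Nat10 (-0.40) changed most, as were 4 of 15 nucleotide synthesis genes. Myc differed by -0.29 (SE 0.11, adjusted p = 0.0667).

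Cell type markers differed between the doses in the same osteocyte arrays. Of 16 proliferation genes, 12 were lower at 50 mg/kg, Cdk1 by 0.77, as were 3 of 9 erythroid, 3 of 6 granulocyte and 3 of 5 B-lineage genes. Of 5 osteocyte markers 4 were higher (Pdpn by 1.70, Mepe by 1.0 and Dmp1 by 0.92), and 5 of 7 endothelial markers were higher. Their part in the lower level of the listed genes was not tested. In osteoblasts the same comparison gave 0 of 34 (limma; 4 higher and 1 lower unadjusted), against 2.53% of all genes tested. Srm was nearest, higher at 50 mg/kg by 0.46 (SE 0.14, adjusted p = 0.0549), followed by Ebna1bp2 at 0.23. In lining cells it gave 0 of 33 (4 higher unadjusted), against 0.647%, with Nme1 at 0.27 and Hspd1 at 0.21. Whether the dose difference itself differed between cell types was not tested.

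**Figure D3:**
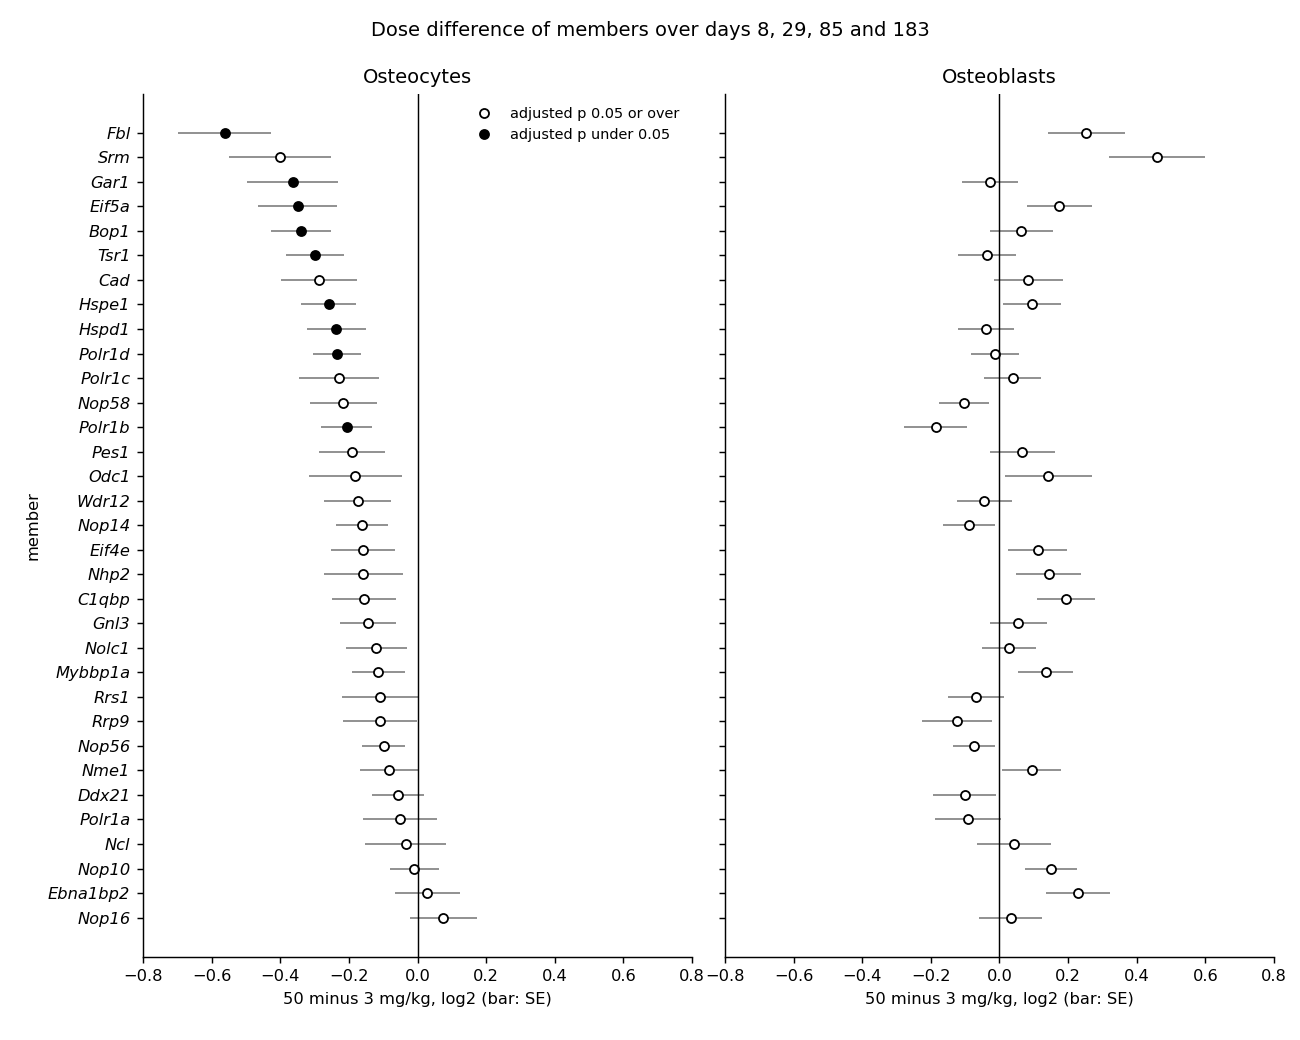
Difference between 50 and 3 mg/kg over days 8, 29, 85 and 183 (log2, points, with SE bars) for each listed gene in osteocytes (left) and osteoblasts (right), ordered by the osteocyte value; filled points have an adjusted p under 0.05. In osteocytes 9 genes were called, all lower at 50 mg/kg, with Fbl at -0.56, and in osteoblasts none was, with Srm at 0.46.

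After dosing stopped, osteocytes of 3 mg/kg rats gave 0 of 33 calls on day 197 (limma; 1 higher and 1 lower unadjusted), against 1.11% of all genes tested, with Polr1d at -0.33 and Mybbp1a at 0.35. They gave 0 on day 267 (3 higher and 2 lower unadjusted), against 3.63%, with Polr1d at 0.37 and Nop56 at -0.32.

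In osteocytes of 50 mg/kg rats some listed genes were lower on both later days, in shares near those of all genes tested. These were 9.09% of the listed genes on day 237 and 12.1% on day 309. On day 237, 3 of 33 were lower and none higher, against 6.16% of all genes tested that were lower. Bop1 read 6.15, 6.46, 6.60, 6.77 and 6.30 in vehicle and 5.78, 6.03, 5.48, 5.87 and 6.05 in antibody rats. The groups did not overlap, the difference was -0.61 (SE 0.17, adjusted p = 0.00683), and the call held with any array left out and under every other setting tried. Eif5a was lower by 0.65 (SE 0.22, adjusted p = 0.0334) and Nop56 by 0.37 (SE 0.12, adjusted p = 0.0287). The count was 1 after quantile normalization, 1 with these arrays fitted alone, 5 with the signal range as a covariate and 6 without arrays of outlying signal range; it was 1 without vehicle replicate 2, 3 or 5 or 50 mg/kg replicate 1 or 3. Beside them, 12 of 16 proliferation genes were lower, their mean level 6.34 in vehicle and 5.55 in antibody rats, 6 of 9 erythroid genes were lower and 4 of 5 osteocyte markers were higher.

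On day 309, 4 of 33 were lower and none higher, against 11% of all genes tested that were lower. Hspd1 read 9.43, 9.12, 9.29, 9.81 and 9.47 in vehicle and 8.73, 8.64, 8.97, 8.79 and 8.42 in antibody rats. All antibody arrays lay below vehicle, with a difference of -0.72 (SE 0.16, adjusted p = 0.000963) that passed with any array left out and under every other setting tried. In osteoblasts of the same day Hspd1 was higher in antibody rats, as given above; the difference between the cell types on that day was not tested. Nop58 was lower by 0.54 (SE 0.18, adjusted p = 0.0309), Gnl3 by 0.46 (SE 0.15, adjusted p = 0.0292) and Nop56 by 0.33 (SE 0.12, adjusted p = 0.0468), and the Gnl3 groups did not overlap. With quantile normalization, and with the signal range as a covariate, 1 gene was higher and 1 lower, and with these arrays fitted alone 1 was lower. The count was 2 without vehicle replicate 1 or 50 mg/kg replicate 1, and 1 without vehicle replicate 5 or 50 mg/kg replicate 2 or 5. Here 13 of 16 proliferation genes (mean level 6.86 in vehicle and 5.91 in antibody rats) and 5 of 9 erythroid genes were lower, and 5 of 6 skeletal muscle genes were higher. The part of these cells was not tested.

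**Figure D4:**
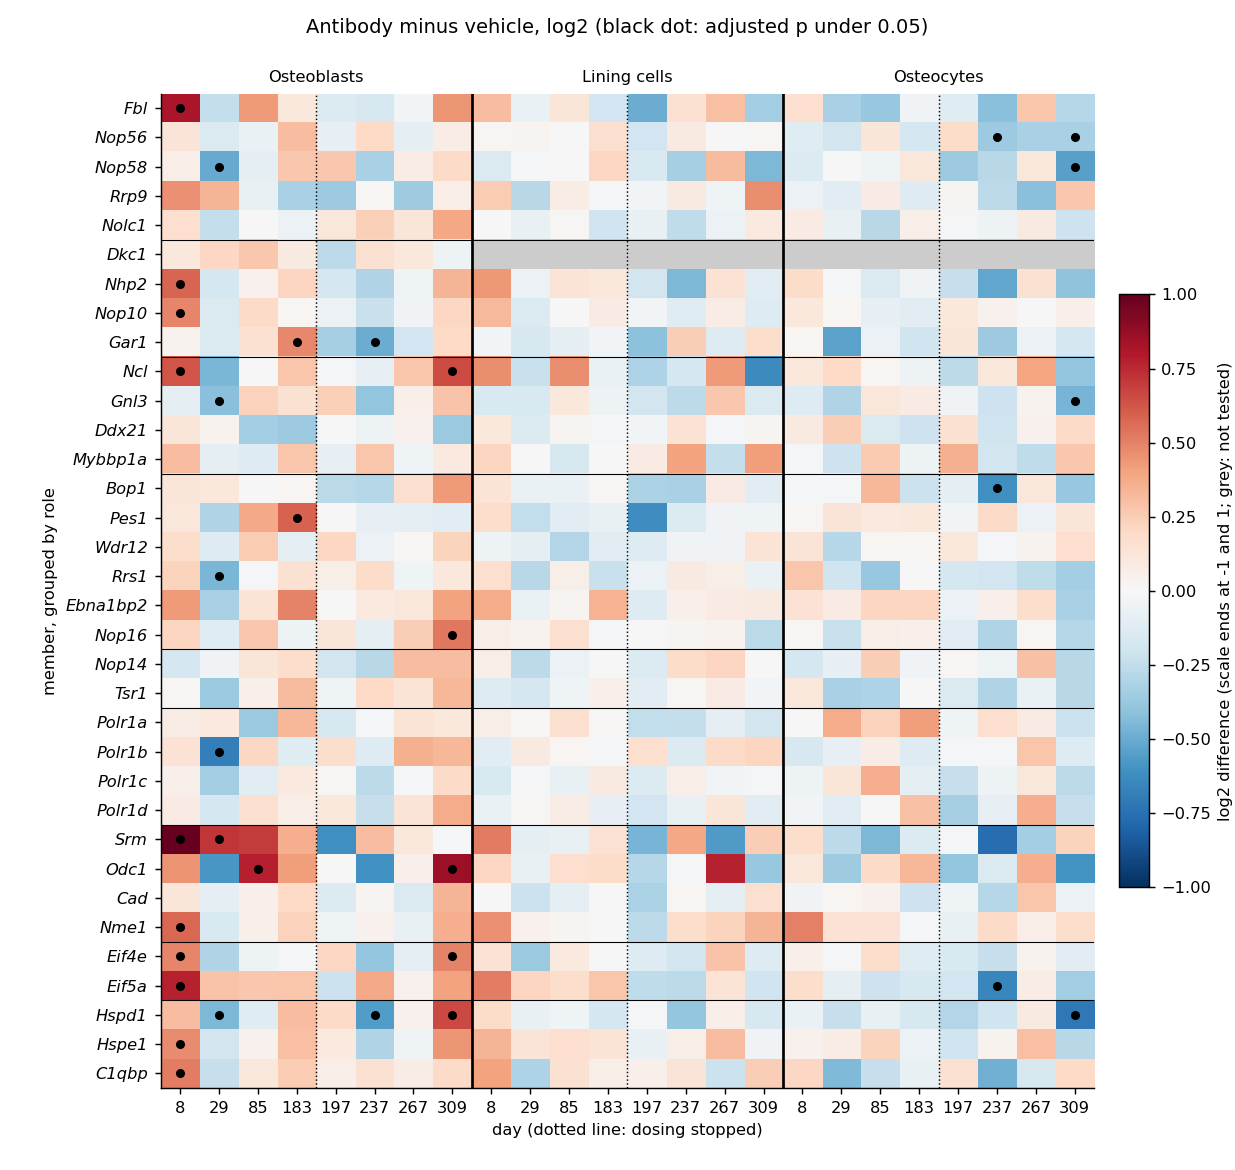
Difference between antibody and vehicle (log2, colour) for 34 listed genes, grouped by role, in each cell type and on each day; days 8 to 183 take both doses together, days 197 and 267 are 3 mg/kg and days 237 and 309 are 50 mg/kg, and black dots mark an adjusted p under 0.05. Osteoblasts on day 8 hold 10 dots, lining cells none, and osteocytes 3 on day 237 and 4 on day 309.

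The responses of the cell types were compared directly on each dosing day. On day 8 none of the 34 genes differed in response between osteoblasts and lining cells, against 0% of all 12507 genes tested, and none at an unadjusted p under 0.05. None differed between osteoblasts and osteocytes, against 0%, with 6 larger in osteoblasts unadjusted. None differed between lining cells and osteocytes, against 0%, with none unadjusted. The medians were 0.14, 0.20 and 0.10. Srm responded more in osteoblasts than in osteocytes by 0.89 (SE 0.37, adjusted p = 0.898), and Eif5a by 0.59. The osteoblast rise on day 8 is therefore not shown to be particular to osteoblasts.

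On day 29 Polr1b responded lower in osteoblasts than in lining cells by 0.77 (SE 0.19, adjusted p = 0.0430), 1 of 34 genes against 0.152% of all genes. The call was lost after quantile normalization, with the covariate, with array weights, and without replicate 1, 2, 3 or 5. Replicate numbers were given here in the order of the deposited arrays and stand for no rat. In this fit, leaving a number out dropped the array of that number from every group. The remaining comparisons gave 0 of 34. For osteoblasts against lining cells, 0.168% of all genes were called on day 85 and 0.024% on day 183 (3 higher and 1 lower, then 2 higher, among the listed genes unadjusted). For osteoblasts against osteocytes, 1.14%, 2.02% and 0.488% were called on days 29, 85 and 183 (1 higher and 4 lower, 2 higher and 1 lower, then 4 higher unadjusted). For lining cells against osteocytes the shares were 0.104%, 2.21% and 0.64% (1 lower, 1 lower, then 1 higher and 1 lower unadjusted).

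The listed genes varied widely between the days of vehicle rats. In osteoblasts 32 of 34 differed among the 8 days, against 82.2% of all genes tested, with Wdr12 and Polr1a the exceptions. In lining cells 27 of 33 did, against 59.9%, and in osteocytes 27 of 33, against 68.6%. Odc1 moved most, by 2.09, 2.16 and 2.24 between its lowest and highest day mean in osteoblasts, lining cells and osteocytes. In osteoblasts its means were 6.12 ± 0.38 (SD, n = 5) on day 8, 6.60 ± 0.53 on day 29, 4.90 ± 0.13 on day 85, 5.08 ± 0.18 on day 183, 6.88 ± 0.26 on day 197, 6.51 ± 0.15 on day 237, 6.99 ± 0.56 on day 267 and 5.80 ± 0.49 on day 309. Days 85 and 183 were low and days 197 and 267 high, and the other cell types had their lowest mean on day 85 as well, 4.44 ± 0.27 in lining cells and 3.51 ± 0.28 in osteocytes.

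Ncl ranged over 1.96, 1.78 and 1.61 in the same 3 cell types and Eif5a over 1.66, 1.68 and 1.37. In osteoblasts Ncl was lowest on day 183 at 5.10 ± 0.23 and highest on day 197 at 7.07 ± 0.26, and Eif5a was lowest on day 183 at 8.11 ± 0.18 and highest on day 267 at 9.77 ± 0.20. With the signal range as a covariate, 28, 19 and 17 of the listed genes differed among days in osteoblasts, lining cells and osteocytes. The share of all genes in that fit is not given here, so these counts do not set the listed genes apart. The age of the rats and the handling of the arrays of a day cannot be told apart here, so each antibody value above is set against vehicle of its own day.

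Every listed gene had a higher deposited level in vehicle osteoblasts than in vehicle lining cells and osteocytes, but so did nearly all genes. The listed genes higher in osteoblasts were 34 of 34 against both, where 94.7% and 93.9% of all genes tested were higher, and the medians were 0.45 and 0.72 for the listed genes and 0.42 and 0.67 for all genes. In lining cells 25 of 34 were higher than in osteocytes, against 71.6% of all genes tested, with medians of 0.21 and 0.27. These directions turned on the scale: after quantile normalization osteoblasts exceeded lining cells in 4 listed genes and fell short in 3. In osteoblasts against osteocytes 11 were higher and 11 lower, and so too in lining cells against osteocytes. Of all 11854 genes tested, 1976 were higher and 1991 lower in osteoblasts than in lining cells on that scale. Against osteocytes the numbers were 3805 and 3758 for osteoblasts and 3677 and 3262 for lining cells. The listed counts are therefore not set apart from those of all genes, and the genes named next are descriptions. Odc1 read 6.11 ± 0.82 in osteoblasts, 5.51 ± 0.84 in lining cells and 4.79 ± 0.86 in osteocytes (SD over all vehicle arrays). Eif4e read 6.59 ± 0.32, 5.89 ± 0.36 and 5.35 ± 0.41, and Fbl 6.49 ± 0.55, 5.94 ± 0.49 and 5.36 ± 0.48. Odc1 and Eif4e were higher in osteoblasts than in osteocytes after quantile normalization too, by 0.53 and 0.44. Dkc1 differed by 0.60, but it was too dim for the filter in lining cells and in osteocytes. It could enter this fit through osteoblast arrays, where it is brighter, so its difference and its place in these counts carry no weight. Srm (-0.41), Eif5a (-0.41) and Polr1a (-0.52) turned lower in osteoblasts on that scale. The captures of the 3 cell types came from the same rats, and the labels gave no rat to block on.

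Within groups, the listed genes rose and fell together from array to array. After the group means were removed, the mean Pearson correlation between listed genes was 0.24 over 561 pairs in the 97 osteoblast arrays, 0.30 over 528 pairs in the 100 lining cell arrays and 0.22 in the 97 osteocyte arrays. Over all genes it was 0.028, 0.031 and 0.022. In osteoblasts the genes most like the rest of the list were Nme1 (mean r 0.42), Hspe1 (0.38) and Odc1 (0.35), and the least like were Dkc1 (-0.05), Ddx21 (-0.03) and Rrp9 (0.07). Fbl, Nhp2 and C1qbp were most like the rest in lining cells (0.44, 0.44 and 0.43) and in osteocytes (0.37, 0.35 and 0.33). Ddx21, an RNA helicase of the nucleolus, and Rrp9 were lowest in both, at -0.20 and 0.01 in lining cells and -0.16 and -0.04 in osteocytes. The highest pair in osteoblasts was Hspd1 with Hspe1 (r = 0.70), chaperonin genes that lie head to head and share their promoter window. These correlations are descriptions, since arrays share signal range and RNA source: the mean of the listed genes followed the signal range with r = 0.75, 0.78 and 0.80 in the 3 cell types, and after quantile normalization the mean correlations between genes were 0.10, 0.14 and 0.079.

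**Figure D5:**
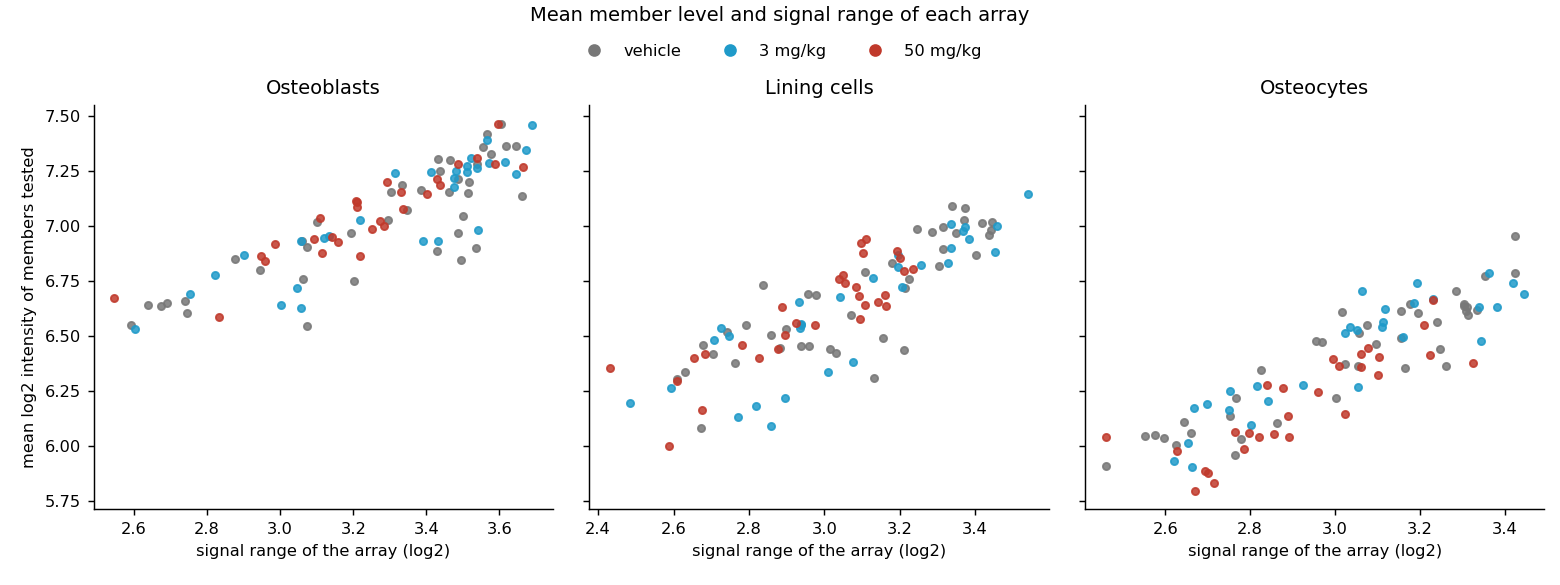
Mean log2 intensity of the listed genes tested against the signal range (90th minus 50th percentile of log2 intensity) of each array, by cell type; grey is vehicle, blue 3 mg/kg and red 50 mg/kg. Arrays with a wide signal range had high means in each cell type.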

How the data were processed

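RNA from laser-captured cells was amplified, biotin-labelled and hybridized to Affymetrix rat arrays, per the labels' protocols. Per the submitters' processing notes the tools were Affymetrix Expression Console, RMA, R 3.0.1 and affy 1.38.1. The authors deposited 1 intensity per probe set on a linear scale (2.94 to 28282), which was turned into log2 here. Of 31042 probe sets, 20826 were annotated to 1 gene, 436 to several and 9780 to none, and those with 1 gene gave 14217 genes. Gene names came from the platform annotation given for the array.

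The deposited values were not renormalized. Genes above the array median in at least 5 arrays of a fit were tested with limma 3.58.1 (R 4.3.3). A fit held all 20 groups of a cell type, the vehicle fit took cell type and day, and the response fit took all 60 groups. P-values were adjusted by Benjamini-Hochberg over all genes tested, with 0.05 as threshold. No rat numbers were given, so no block was fitted. No pair of arrays of the same group was a duplicate: the highest correlation within a group ran from 0.955 to 0.991. Arrays of different groups were not compared in this way. The number of arrays limits the precision. In simulated data, 98 of 100 osteoblast genes changed by 1 on day 8 were recovered and 45 of 100 changed by 0.5. The corresponding numbers were 100 and 87 for the osteocyte dose comparison. The simulated noise was independent between genes, while the arrays share effects such as signal range, so recovery in the real data may be lower.

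All listed genes were accounted for by role, and up to 4 called genes per direction, or the 2 with the smallest p, were named with their statistics. From other lists up to 3 called genes of a comparison could be named, and Myc was added after its values were seen. The listed genes and all other lists were chosen with earlier results of these data known. Promoter sequences are RefSeq's, build GRCr8. Alternatives were quantile normalization, the signal range as a covariate, array weights, no filter, the mean of a gene's probe sets, the compared groups alone, arrays of outlying signal range left out, and each array or replicate number left out.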

Additional observations from a re-analysis of the deposited data

Results flagged for a closer look

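A single array stood apart in the mean level of the listed genes: osteocyte replicate 2 at 3 mg/kg on day 29 read 5.90, while the other 3 arrays of its group lay between 6.51 and 6.54. The same array stood apart in signal range, 2.66 against 3.02 to 3.05 in the others. Of 59 groups of 4 or 5 arrays examined this way it was the only such array, and chance marks about 1 group in 20.

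Several listed genes responded differently on different days in osteoblasts, by the test of the difference itself. The response on day 29 was lower than on day 8 for Ncl (-1.09), Fbl (-1.05), Odc1 (-1.03), Polr1b (-0.83), Eif4e (-0.79), Nhp2 (-0.76), Hspd1 (-0.76), Ebna1bp2 (-0.75), C1qbp (-0.74), Nme1 (-0.73), Rrs1 (-0.68), Hspe1 (-0.65), Nop10 (-0.64) and Nop58 (-0.57). The response to 50 mg/kg on day 237, after dosing, was lower than on day 183 for Odc1 (-1.23), Hspd1 (-0.97), Gar1 (-0.91), Hspe1 (-0.71) and Gnl3 (-0.68). Between cell types, the day 29 response of Polr1b was lower in osteoblasts than in lining cells (-0.77).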

How the results depend on the processing

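No paired analysis was possible because the labels give no rat or replicate number that ties arrays across groups. Over the named genes, 228 values kept their direction and their side of the threshold across the alternatives, 77 kept the direction and lost the call, and 0 reversed. Of the counts of called genes, 356 stayed within 1.5 times and 97 moved. The rest gives how many of the listed genes passed where that number moved. Except where a value above shows it, the cause was not tested. For most of these counts, here and above, the count over all genes under the same setting is not given. They therefore do not tell a change in the listed genes from a change in all genes. Days 8 to 183 take both doses together, and days after dosing take the dose then sampled.

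After quantile normalization osteoblasts gave 1 on day 183, 0 on day 237, 3 for day 237 minus day 183, 0 on day 309, 1 for day 309 minus day 183, 1 between doses, 5 for the day 29 minus day 8 response and 2 for day 183 minus day 8. Osteocytes gave 1 on days 8, 85, 237 and 267, 2 on day 309, 5 for day 309 minus day 183, and 1 for the day 183 minus day 8 response. In vehicle, 7 genes differed between osteoblasts and lining cells and 22 between osteoblasts and osteocytes. The response of osteoblasts minus lining cells gave 0 on day 29, and minus osteocytes 1 on day 85.

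With the signal range as a covariate osteoblasts gave 1 on day 29, 0 on days 85, 183, 237 and 309, 0 for day 237 minus day 183, 1 between doses, 0 for the day 29 minus day 8 response and 1 for day 183 minus day 8. Osteocytes gave 1 on days 8 and 85, 5 on day 237, 2 on day 309, 1 for day 309 minus day 183, 1 for the day 183 minus day 8 response and 17 among vehicle days. The response of osteoblasts minus lining cells gave 0 on day 29, and minus osteocytes 1 on days 29 and 85.

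With array weights osteoblasts gave 0 on day 85, 6 on day 183, 2 on day 309 and 1 for the day 183 minus day 8 response. Lining cells gave 3 on day 8 and 1 on day 237, for day 237 minus day 183 and on day 267. Osteocytes gave 1 on day 8, 2 on days 197 and 267, 1 for day 197 minus day 183, 2 for day 309 minus day 183 and 1 for the day 183 minus day 8 response. The response of osteoblasts minus lining cells gave 0 on day 29, and minus osteocytes 1 on days 29 and 183.

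With the compared groups alone, where fewer arrays set the spread, osteoblasts gave 1 on days 8 and 29 and 0 on days 183 and 309, lining cells 1 on day 267, and osteocytes 1 on days 237 and 309. Without arrays of outlying signal range osteoblasts gave 0 on day 85 and osteocytes 6 on day 237. With the mean of a gene's probe sets osteoblasts gave 4 on day 237 and osteocytes 1 on day 267, and with no filter osteocytes gave 1 on day 85.

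With arrays left out in turn, osteoblast counts ran from 2 to 11 on day 8, 2 to 10 on day 29, 0 to 2 on day 85, 0 to 4 on day 183, 0 to 2 on day 237, 3 to 7 for day 237 minus day 183, 0 to 7 on day 309, 0 to 1 between doses, 4 to 14 for the day 29 minus day 8 response and 0 to 1 for day 183 minus day 8. Osteocyte counts ran from 1 to 4 on day 237, 1 to 6 on day 309, 0 to 1 for day 309 minus day 183 and 5 to 12 between doses. With replicate numbers left out, the response of osteoblasts minus lining cells on day 29 gave 0 to 1, and that of osteoblasts minus osteocytes on day 85 gave 0 to 1. Among single doses, osteoblasts at 50 mg/kg gave 6 to 14 on day 29, 1 to 2 on day 85 and 0 to 3 on day 183, and osteocytes at 50 mg/kg gave 0 to 4 on day 29 and 0 to 2 on day 85. Dim genes near the array median, such as Polr1b and Pes1, are limited by signal over background.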

Other observations

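Of the listed genes, 6 had several probe sets: Nop56, Nolc1, Polr1d, Eif4e, Ddx21 and Cad. For Eif4e on day 8 in osteoblasts, the probe set used gave a difference of 0.49 between antibody and vehicle, and the other 2, which were dimmer over all arrays (mean log2 intensity 3.26 and 3.01 against 5.91), gave -0.08 and -0.06. On day 29 the Eif4e probe sets gave -0.30, 0.20 and -0.12 in the same order. The 2 probe sets of Polr1d gave 0.08 and 0.26 on day 8. The 2 of Ddx21 gave 0.12 and 0.08 on day 8 and 0.03 and -0.37 on day 29.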
